A study of Homo sapiens with 4 samples.

Results

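The genes described here are 10 genes of the epithelial-mesenchymal transition: CDH1, EPCAM, CDH2, CDH6, VIM, FN1, ZEB1, ZEB2, SNAI2 and TWIST1. Their members were chosen by name, as every non-control probe whose gene name on the array equals one of the 10 symbols. This gave 10 of the 25992 gene names and 15 of the 34127 probes on the array. On at least 2 of the 4 arrays each of the 10 genes gave a signal well above background, and 7 of them did so on all 4.

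The study asked which genes empagliflozin (Empa), an inhibitor of the sodium-glucose cotransporter SGLT2, holds down in human proximal tubular cells (HPTC) stimulated with the inflammatory cytokine IL-1β. Papillomavirus E6 and E7 immortalised the HPTC line HK-2, and the catalytic subunit of telomerase immortalised the HPTC line RPTEC/TERT1. After 24 h without serum and supplements, cells of both lines received 10 ng/mL IL-1β and 500 nM Empa together for 24 h, in normoglycemic medium. Each line has 2 arrays, replicates 1 and 2, which the methods call biological duplicates. All 4 arrays share this treatment, and neither unstimulated cells nor cells given only IL-1β were analysed here, so no value below is an effect of IL-1β or of Empa.

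In the epithelial-mesenchymal transition, epithelial cells loosen their E-cadherin junctions and take up a motile, matrix-producing state. Transcription factors of the ZEB, SNAI and TWIST families repress E-cadherin and other junction genes, while vimentin, fibronectin and N-cadherin rise. In the kidney the programme is studied in injured tubules and in fibrosis, and the proximal tubule differs from most epithelia in that N-cadherin and cadherin 6 are cadherins of the normal segment.

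A level is log2 of the processed spot signal over that of the array's 75th percentile, so 0 is a gene as bright as that percentile and 1 unit is a 2-fold difference. Levels were not allowed under a floor of -5.37, and a gene at the floor has only an upper bound. The 75th percentile was 393 to 748 signal units on the 4 arrays, and 59.2% to 64.9% of the spots were well above background. Across 17928 genes replicate 1 of HK-2 correlated with replicate 2 of RPTEC/TERT1 at 0.98, and the remaining arrays of both lines did so at 0.976, whereas the arrays that share a label correlated at 0.865 (HK-2) and 0.855 (RPTEC/TERT1). Genes are not independent replicates, so these correlations are descriptions. The arrays thus paired across their labels, and an array is named below only by the label it carries. Whether 2 labels were exchanged was not tested and is not settled by the sources used here, so each difference between the lines below is one between labels. Under 2 alternatives, normexp background correction and the log2 values the authors deposited, the median over all genes of HK-2 replicate 1 minus replicate 2 moved from 0.03 to 1.20 and 0.87 on the log2 scale. Differences within HK-2 under these alternatives are therefore mostly given relative to that median, and some also before it is subtracted. The move was not the same for every gene. Before subtraction, normexp correction took bright VIM from 0.11 to -0.88 and dim SNAI2 from -0.44 to 2.03. A single median does not remove such a move, so a turn relative to all genes cannot be read as a turn of that gene alone. Precision is limited by the number of arrays, and in these bulk samples fewer cells of a type and less RNA per cell cannot be told apart.

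Probe sequences are shown for FN1, TWIST1 and ZEB2, whose probes below were well above background on 2 of the 4 arrays only, and for VIM, whose spot was saturated on 1 array. Each is 60 bases long, written 5′ to 3′ in lower case as the array design gives it, with no base marked.
FN1, A_24_P334130: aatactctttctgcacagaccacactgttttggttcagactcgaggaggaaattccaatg
TWIST1, A_33_P3414591: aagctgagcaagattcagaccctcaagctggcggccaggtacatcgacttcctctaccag
ZEB2, A_33_P3243832: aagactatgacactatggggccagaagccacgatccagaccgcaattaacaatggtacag
VIM, A_23_P161190: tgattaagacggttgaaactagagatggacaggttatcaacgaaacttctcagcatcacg
On GRCh37, the build in the file headers, the FN1 probe lies at chr2:216288217-216288895 and the VIM probe at chr10:17278347-17279256. Their spans of 679 and 910 bases are longer than the probes, so each covers a join between exons. The TWIST1 probe lies at chr7:19156462-19156521 and the ZEB2 probe at chr2:145182363-145182422.

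CDH1 encodes E-cadherin, the calcium-dependent adhesion molecule of epithelial adherens junctions. Its level was -0.72 and -5.37 on the arrays labelled HK-2, replicates 1 and 2, and -5.37 and -1.12 on those labelled RPTEC/TERT1. It was therefore measured on 1 array of each label and not well above background on the other. Within HK-2, CDH1 was at least 25.1-fold higher on replicate 1 than on replicate 2, and within RPTEC/TERT1 it was at least 19.1-fold higher on replicate 2 than on replicate 1. These bounds hold only for levels as defined above. On the log2 scale HK-2 replicate 1 minus replicate 2 was 4.65, and 3.62 with normexp correction and 3.18 with the deposited values. Within RPTEC/TERT1 it was -4.26, and -2.36 and -2.13 under the same alternatives. CDH1 was the only member printed more than once on the array, with its probe (A_23_P206359, chr16:68869214-68869273) at 10 spots. The processed signal of these spots was 209 to 258 on HK-2 replicate 1, it was 183 to 218 on RPTEC/TERT1 replicate 2, and all 10 were well above background on both arrays. On RPTEC/TERT1 replicate 1 none of the 10 was, and on HK-2 replicate 2 none of the 9 spots kept was. The remaining spot there, marked as an outlier by the scanner software, read 17.8.

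**Figure D1:**
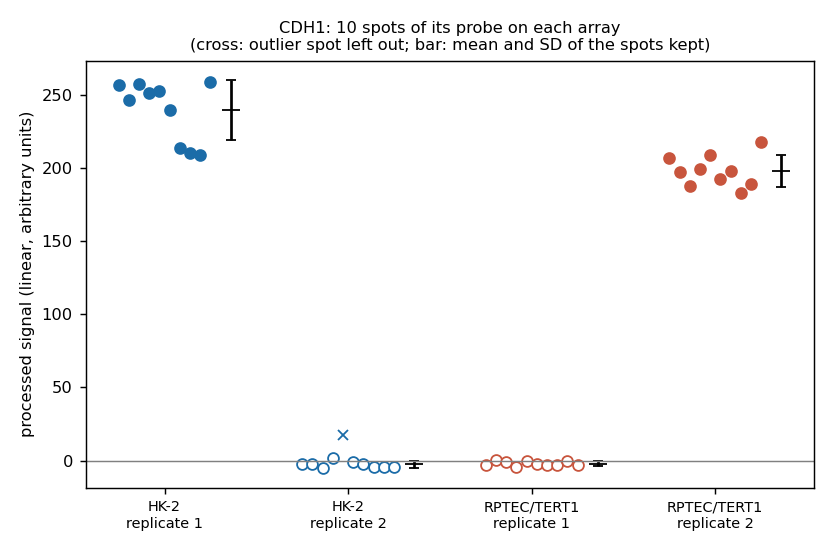
Processed signal (linear, arbitrary units) of each of the 10 CDH1 spots on each of the 4 arrays, with outlier spots marked. The spots of HK-2 replicate 1 (209 to 258) and of RPTEC/TERT1 replicate 2 (183 to 218) stand far from 0, and those kept on the other arrays lie around 0.

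EPCAM, an epithelial surface glycoprotein that mediates adhesion between cells, did not follow CDH1 in size. It was bright on every array, with levels of 3.70 and 3.41 on HK-2 replicates 1 and 2 and of 2.78 and 3.96 on RPTEC/TERT1 replicates 1 and 2. The whole range was 2.26-fold, between the RPTEC/TERT1 arrays, and the HK-2 arrays differed by 1.23-fold. Arrays on which CDH1 was not detected thus still read 7932 (HK-2 replicate 2) and 3360 (RPTEC/TERT1 replicate 1) processed signal units at the EPCAM probe (A_23_P91081, chr2:47613894-47613953). The higher EPCAM level of HK-2 replicate 1 turned to a lower one relative to all genes with normexp correction (-2.08 on the log2 scale) and with the deposited values (-1.17).

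CDH2 encodes N-cadherin, and its levels ran opposite to those of CDH1. They were -2.36 and 1.50 on HK-2 replicates 1 and 2 and 1.76 and -2.48 on RPTEC/TERT1 replicates 1 and 2. N-cadherin RNA was thus 14.5-fold higher on replicate 2 than on replicate 1 of HK-2, and 18.9-fold higher on replicate 1 than on replicate 2 of RPTEC/TERT1. Both probes gave this order. The probe at chr18:25532081-25532140 differed 10.9-fold and 21.6-fold within HK-2 and RPTEC/TERT1, and the probe at chr18:25530936-25530995 differed 19.4-fold and 16.5-fold. Unlike CDH1, CDH2 was well above background on all 4 arrays.

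CDH6, a cadherin of the developing nephron and the proximal tubule, had levels of -3.26 and 0.27 on HK-2 replicates 1 and 2 and of 0.86 and -3.49 on RPTEC/TERT1 replicates 1 and 2. The same 2 arrays were high as for CDH2. The difference was 11.6-fold within HK-2 and 20.4-fold within RPTEC/TERT1. Within HK-2 it fell from -3.53 on the log2 scale to -0.59 with normexp correction and -1.23 with the deposited values, or -1.79 and -2.09 relative to all genes. These values come from the probe at chr5:31324207-31324266, since the other CDH6 probe (chr5:31250260-31250319) was not well above background on any array.

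FN1 encodes fibronectin, a glycoprotein of the extracellular matrix. It was measured on HK-2 replicate 2, at a level of -1.46, and on RPTEC/TERT1 replicate 1, at -1.05. It was not well above background on the other array of each label, with processed signals of 6.36 (HK-2) and 9.54 (RPTEC/TERT1) against 271 and 236. FN1 was at least 15.0-fold higher on replicate 2 than on replicate 1 of HK-2 and at least 20.1-fold higher on replicate 1 than on replicate 2 of RPTEC/TERT1. Within HK-2 the difference of replicate 1 from replicate 2 turned from -3.91 to 0.94 with normexp correction and to 0.17 with the deposited values. Relative to all genes it shrank to -0.25 and -0.70. The order within RPTEC/TERT1 did not turn under any of the 6 alternatives that keep all 4 arrays.

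VIM, the intermediate filament protein of mesenchymal cells, was bright on every array. Its levels were 6.43 and 6.32 on HK-2 replicates 1 and 2 and 5.44 and 7.23 on RPTEC/TERT1 replicates 1 and 2. The spot was saturated on RPTEC/TERT1 replicate 2, so VIM was at least 3.46-fold higher there than on replicate 1. Within HK-2 the arrays differed by 1.08-fold, a difference whose direction turned with quantile normalization and, relative to all genes, with normexp correction and the deposited values. VIM was therefore high on the arrays with CDH1 and on those without it.

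**Figure D2:**
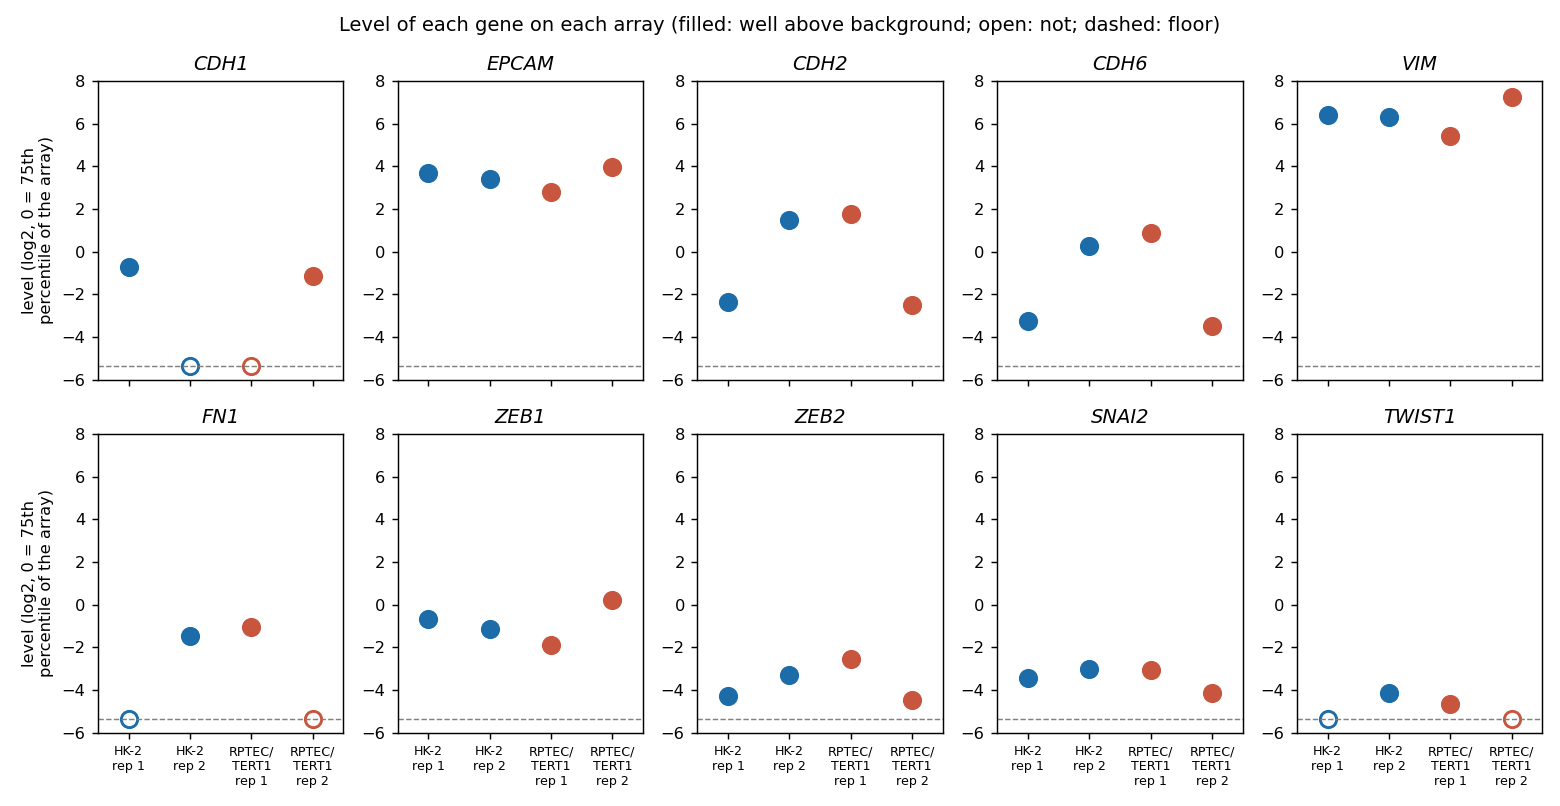
Level (log2, 0 being the 75th percentile of the array) of each of the 10 genes on the 4 arrays, with filled points for genes well above background, open points for those that were not and a dashed line at the floor of -5.37. CDH1 is high on replicate 1 of HK-2 and replicate 2 of RPTEC/TERT1, CDH2, CDH6 and FN1 are high on replicate 2 of HK-2 and replicate 1 of RPTEC/TERT1, and EPCAM and VIM are bright on every array.

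ZEB1 is a zinc finger repressor of CDH1. It had levels of -0.66 and -1.16 on HK-2 replicates 1 and 2 and of -1.91 and 0.21 on RPTEC/TERT1 replicates 1 and 2, the arrays with CDH1 being the higher ones. The differences were 1.42-fold within HK-2 and 4.35-fold within RPTEC/TERT1. Relative to all genes the HK-2 order of ZEB1 turned with normexp correction (-0.17) and the deposited values (-0.01). The ZEB1 probes disagreed on HK-2. The probe at chr10:31818063-31818122 was 2.28-fold higher on replicate 1, and the probe at chr10:31816261-31816320 was 1.13-fold higher on replicate 2. On RPTEC/TERT1 both were higher on replicate 2, by 2.15-fold and 8.77-fold.

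ZEB2, the paralog of ZEB1, ran the other way, with levels of -4.27 and -3.29 on HK-2 replicates 1 and 2 and of -2.53 and -4.48 on RPTEC/TERT1 replicates 1 and 2. Its probe at chr2:145146261-145146320 was 2.98-fold higher on replicate 2 of HK-2 and 6.66-fold higher on replicate 1 of RPTEC/TERT1. The other probe, whose sequence is given above, was well above background on those arrays alone, at least 1.31-fold and at least 2.23-fold higher there. The order of the HK-2 arrays turned relative to all genes with normexp correction, to 0.77 for replicate 1 minus replicate 2 on the log2 scale, and with the deposited values, to 0.28.

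SNAI2 encodes SLUG, a zinc finger repressor of the SNAI family, and was dim on all arrays. Its levels were -3.46 and -3.02 on HK-2 replicates 1 and 2 and -3.04 and -4.12 on RPTEC/TERT1 replicates 1 and 2. The RPTEC/TERT1 arrays differed by 2.12-fold and the HK-2 arrays by 1.35-fold, and the HK-2 order turned relative to all genes, to a log2 difference of 0.83 in favour of replicate 1 with normexp correction and of 0.42 with the deposited values.

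TWIST1, a basic helix-loop-helix factor, was near the floor where it was detected. Its levels were -4.14 on HK-2 replicate 2 and -4.65 on RPTEC/TERT1 replicate 1, and it was at the floor on the others. The probe shown above was at least 4.18-fold higher on replicate 2 than on replicate 1 of HK-2 and at least 2.73-fold higher on replicate 1 than on replicate 2 of RPTEC/TERT1. With normexp correction and with the deposited values the HK-2 order of TWIST1 turned relative to all genes, to log2 differences of 1.35 and 0.78 in favour of replicate 1. Its other probe, at chr7:19155645-19155704, was well above background on HK-2 replicate 2 only.

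Of the 10 genes, 4 (CDH1, EPCAM, VIM and ZEB1) were higher on both replicate 1 of HK-2 and replicate 2 of RPTEC/TERT1 than on either remaining array, and 6 (CDH2, CDH6, FN1, ZEB2, SNAI2 and TWIST1) were lower on both. With normexp correction and the deposited values the order of EPCAM, VIM, ZEB1, ZEB2, SNAI2 and TWIST1 turned within HK-2 relative to all genes. That of FN1 turned there only before the median over all genes was subtracted. One or the other order, both higher or both lower, held in 72.0% of the 16468 genes tested, so it was common on these arrays. The genes on each side did not all share a role, since VIM and ZEB1 lay with CDH1 and EPCAM. The cause of the order was not tested.

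The labelled cell lines were compared over all 4 arrays with limma. No member passed the Benjamini-Hochberg threshold of 0.05, beside 0.0% of the 16468 genes tested, and the adjusted p was 1 for each member. At an unadjusted p under 0.05 there were 23 genes in all and none of the 10. The arrays of the labels overlapped for all 10, and did not overlap for 7.17% of the genes tested.

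For CDH1 the mean level was -3.05 ± 3.29 (SD, n = 2) in HK-2 and -3.24 ± 3.01 (SD, n = 2) in RPTEC/TERT1. The difference of 0.20 had a 95% interval in limma from -5.75 to 6.15, over arrays at the floor. For CDH2 the difference was -0.06 (-5.49 to 5.36), for CDH6 -0.18 (-5.49 to 5.13) and for FN1 -0.21 (-5.73 to 5.31). Each of these intervals reaches beyond 5 log2 units in both directions, and those of CDH1 and FN1 rest on levels at the floor. Narrower intervals were found for EPCAM, at 0.19 (-1.41 to 1.78), and SNAI2, at 0.34 (-1.23 to 1.91). For VIM the fit gave 0.04 (-1.97 to 2.05), which is not exact because 1 RPTEC/TERT1 spot was saturated. TWIST1 differed by 0.25 (-1.49 to 2.00), ZEB1 by -0.07 (-2.38 to 2.25) and ZEB2 by -0.28 (-2.59 to 2.04). TWIST1 and a probe of ZEB2 were at the floor on 1 array of each label, so the floor narrows their intervals. HK-2 replicate 1 minus replicate 2 was -1.23 for TWIST1 with the floor and -4.7 without it. For ZEB2 these values were -0.98 and -2.35. A difference of 2-fold between the labels, in either direction, lies inside the intervals of the 9 genes without a saturated spot, so the data neither show one nor show its absence.

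**Figure D3:**
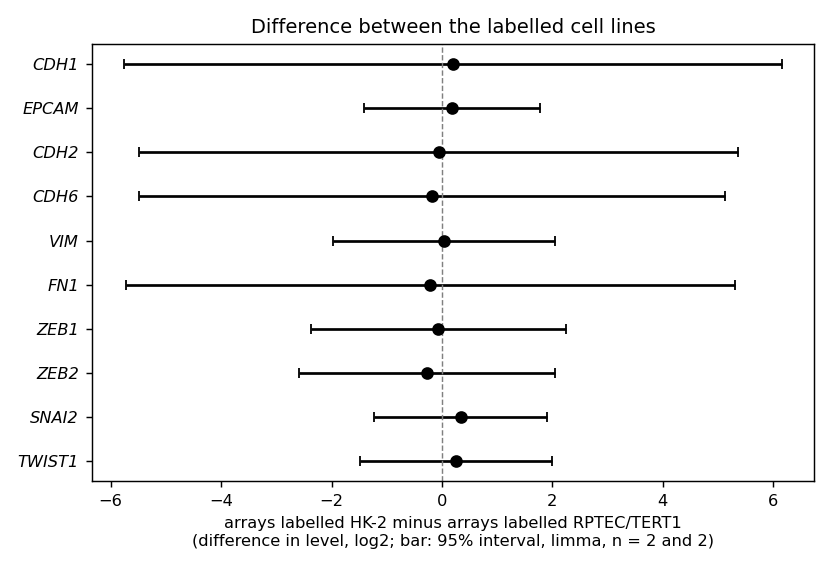
Difference in level (log2) between the arrays of HK-2 (n = 2) and those of RPTEC/TERT1 (n = 2) for each of the 10 genes, with the 95% interval of limma as a bar. All 10 intervals include 0, and those of CDH1, CDH2, CDH6 and FN1 reach beyond 5 in both directions.

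Within HK-2, 1 of the 10 was more than 2-fold higher on replicate 1 (CDH1) and 4 were lower (CDH2, CDH6, FN1 and TWIST1), beside 17.5% and 15.6% of 17928 genes. Within RPTEC/TERT1, 5 were more than 2-fold higher on replicate 1 (CDH2, CDH6, FN1, ZEB2 and SNAI2) and 4 were lower (CDH1, EPCAM, VIM and ZEB1), beside 17.6% and 21.1%. The median absolute difference over the members was 1.11 within HK-2 and 2.03 within RPTEC/TERT1, on the log2 scale, and over all genes 0.64 and 0.75.

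The members were closest between arrays that differ in both label and replicate number. Between replicate 1 of HK-2 and replicate 2 of RPTEC/TERT1 none was measured to differ by more than 2-fold, beside 6.14% of all genes, and the median absolute difference was 0.24 over the members and 0.21 over all genes. FN1 and TWIST1 were not well above background on either array of this pair, so the floor set their differences to 0. Without the floor the median was 0.4 over 9 members. ZEB1 (1.84-fold) and VIM (at least 1.75-fold), both higher on RPTEC/TERT1 replicate 2, were farthest apart. The median for the members moved to 1.91 with normexp correction, against 1.37 within HK-2 and 1.67 within RPTEC/TERT1. With the deposited values it moved to 1.26, against 1.19 and 1.68. On these values this pair was not the closer one under normexp correction, nor closer than the HK-2 arrays with the deposited values. They were not taken relative to all genes, so a shift over all genes, like that within HK-2 given above, enters them. Whether the members alone lose this pairing cannot be read from them. Between replicate 2 of HK-2 and replicate 1 of RPTEC/TERT1 none was measured to differ by more than 2-fold either, beside 7.52% of all genes. The medians were 0.55 over the members and 0.30 over all genes. For the members the median was 0.45 with normexp correction, 0.43 with the deposited values and 0.68 without the floor. CDH1 was not well above background on either array of this pair, so the floor set its difference to 0. VIM (1.84-fold higher on HK-2 replicate 2) and ZEB2 (1.69-fold higher on RPTEC/TERT1 replicate 1) were farthest apart there. Arrays with the same replicate number but different labels had medians over the members of 1.49 (replicate 1) and 1.31 (replicate 2). Each of these is a difference between 2 arrays, with no replicate check.

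**Figure D4:**
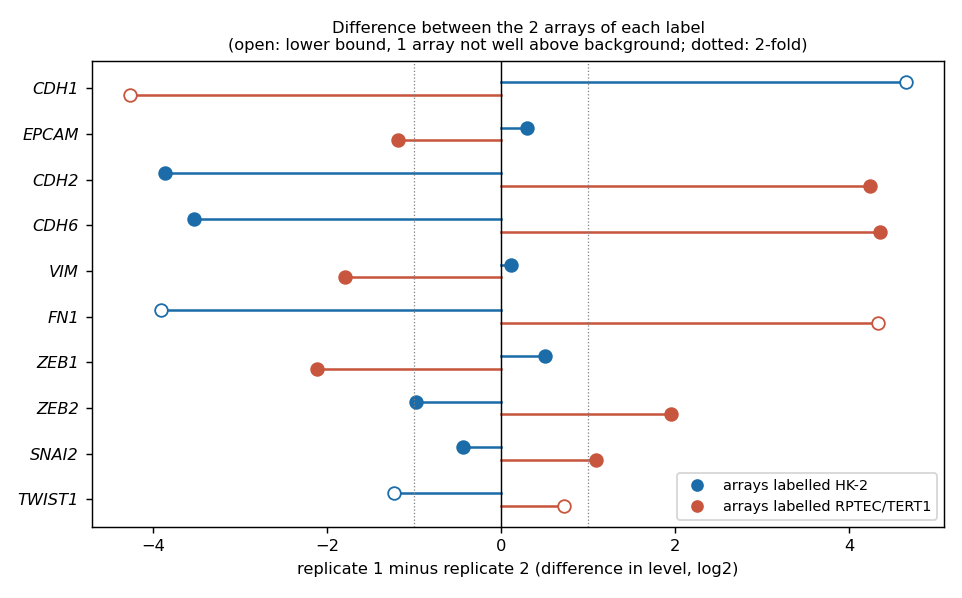
Replicate 1 minus replicate 2 (log2 level) of each of the 10 genes, within the arrays labelled HK-2 and within those labelled RPTEC/TERT1. CDH1, EPCAM, VIM and ZEB1 lie above 0 within HK-2 and below 0 within RPTEC/TERT1, and the other 6 lie the other way round, the HK-2 values of EPCAM, VIM, ZEB1, ZEB2, SNAI2 and TWIST1 changing sign relative to all genes with normexp correction and the deposited values. The HK-2 value of FN1 changed sign with them only before the median over all genes was subtracted.

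Further genes of the transition were read from lists. No gene of the 25 epithelial junction and identity genes tested, the 18 mesenchymal genes or the 13 upstream signals passed the limma test between HK-2 and RPTEC/TERT1 (Benjamini-Hochberg), nor did any at an unadjusted p under 0.05. Within HK-2, 15 of 25 detected epithelial genes were more than 2-fold higher on replicate 1 and 4 were lower. Over all genes the shares were 17.5% and 15.6%. The median difference was 1.39 against 0.03 over all genes. With normexp correction and with the deposited values the counts were 18 and 0, not taken relative to all genes. The medians were then 1.9 against 1.2 and 1.52 against 0.87, so the excess over all genes was smaller. Within RPTEC/TERT1, 2 were higher on replicate 1 and 14 were lower, beside 17.6% and 21.1%, with a median of -1.18 against -0.04.

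Epithelial genes with the widest range resembled CDH1. OCLN, which encodes the tight junction protein occludin, had levels of -0.24 and -5.37 on HK-2 replicates 1 and 2 and of -5.37 and -0.55 on RPTEC/TERT1 replicates 1 and 2. CDH16, kidney-specific cadherin, read 4.83, -0.55, -0.55 and 4.97 in this order of arrays, and LLGL2, a polarity protein of the basolateral membrane, -0.35, -4.78, -4.83 and -0.25. The junction genes CTNNB1 (β-catenin; 0.11, 0.22, 0.84 and 0.17) and TJP1 (ZO-1; 1.45, 0.94, 0.86 and 1.04) varied little, as EPCAM did, TJP1 turning within HK-2 relative to all genes with normexp correction (-1.45) and the deposited values (-0.69), and within RPTEC/TERT1 with normexp correction (0.01). ESRP1, an epithelial splicing factor, was dim at -3.82, -4.50, -3.09 and -3.80. Of the 25 detected epithelial genes, 4 ran opposite to CDH1 by more than 2-fold within HK-2 and 2 did so within RPTEC/TERT1.

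The mesenchymal list held genes of both directions. Within HK-2, 8 of 19 detected genes were more than 2-fold higher on replicate 1 and 5 were lower, beside 17.5% and 15.6% of all genes. The median difference was 0.65 against 0.03 over all genes. It was 0.65 against 1.2 with normexp correction and 0.47 against 0.87 with the deposited values, so it turned to below that of all genes. The counts, not taken relative to all genes, were 7 and 3 with normexp correction and 9 and 2 with the deposited values. Within RPTEC/TERT1 4 were higher and 7 were lower, beside 17.6% and 21.1%, with a median of -0.43 against -0.04. SPARC, a matrix glycoprotein, read -4.72, 0.11, -0.25 and -5.37 on HK-2 replicates 1 and 2 and RPTEC/TERT1 replicates 1 and 2. It was not well above background on the arrays where FN1 was not. Within HK-2, its replicate 1 minus replicate 2 fell from -4.83 to -0.36 with normexp correction and -1.05 with the deposited values, not taken relative to all genes. ACTA2, smooth muscle α-actin, ran the other way at -1.56, -5.37, -5.37 and -1.39, and so did S100A4, a calcium-binding protein of fibroblasts, at -1.57, -4.54, -4.53 and -1.13. SNAI1, the paralog of SNAI2, read 0.20, -0.45, -0.53 and 0.73, and TWIST2 was not well above background on any array.

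Of the 13 detected upstream signals, 5 were more than 2-fold higher and 4 lower on replicate 1 within HK-2, beside 17.5% and 15.6% of all genes. These counts were 8 and 2 with normexp correction and 8 and 1 with the deposited values, both of which raised the median over all genes as given above. Within RPTEC/TERT1, 2 were higher and 4 lower, beside 17.6% and 21.1%. TGFB2, a ligand that induces the transition, read -3.99, -0.37, -0.87 and -3.40 and was high where CDH2 and FN1 were, while TGFB1 read 0.78, -0.97, -0.47 and 0.47. Within HK-2, replicate 1 minus replicate 2 of TGFB2 moved from -3.62 to 0.05 with normexp correction and -0.64 with the deposited values. Relative to all genes these were -1.15 and -1.51. ID2 and ID3, which inhibit basic helix-loop-helix factors, were high where CDH1 was, at 3.35, -1.35, -1.97 and 3.68 for ID2 and 0.99, -2.15, -2.50 and 1.38 for ID3. HMGA2, a chromatin protein that promotes the transition, read -1.02, 1.33, 0.04 and 0.10 and was highest on HK-2 replicate 2. With its brightest probe alone the RPTEC/TERT1 arrays differed by 2.91, replicate 1 being higher.

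**Figure D5:**
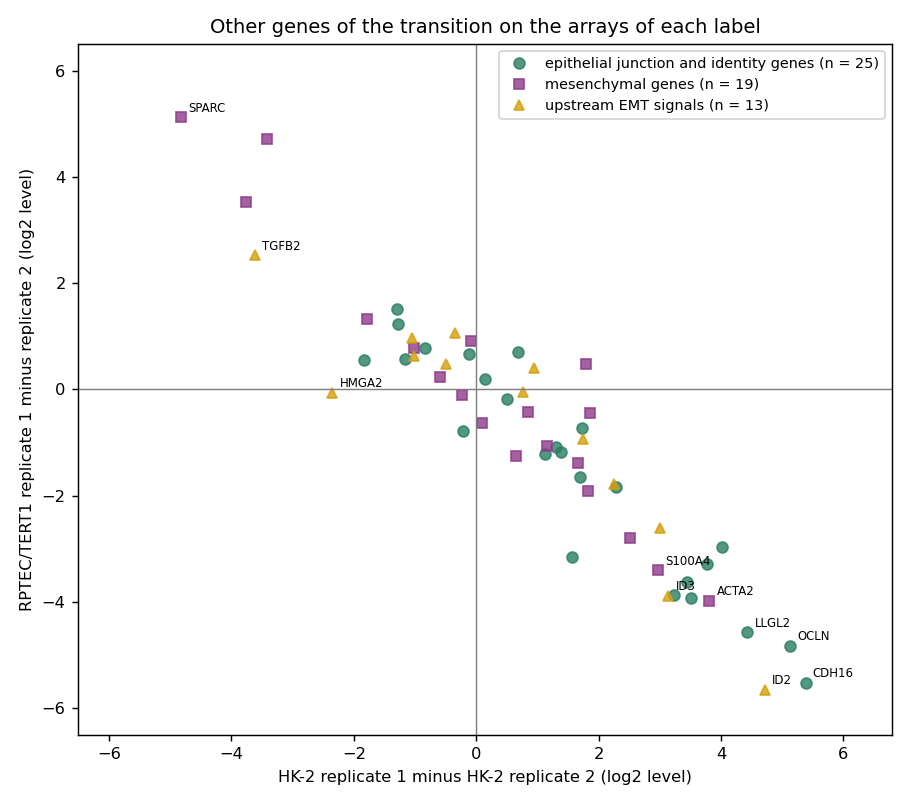
Replicate 1 minus replicate 2 (log2 level) within HK-2 on the horizontal axis and within RPTEC/TERT1 on the vertical axis, for the detected genes of the epithelial, mesenchymal and upstream lists. Epithelial genes such as CDH16, OCLN and LLGL2 lie at the lower right with ACTA2 and ID2, and SPARC and TGFB2 lie at the upper left.

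Markers of other cells were read beside these groups. Of 7 fibroblast markers, 1, 3, 3 and 0 were well above background on HK-2 replicates 1 and 2 and RPTEC/TERT1 replicates 1 and 2, with summed levels of 3.29%, 187%, 141% and 0% of the 75th percentile. They moved with CDH2, CDH6 and FN1 through LUM (-5.37, 0.23, -0.30 and -5.37) and DCN (-5.37, -0.61, -0.87 and -5.27), matrix proteoglycans, whereas the fibroblast markers COL1A2, COL3A1, PDGFRA and PDGFRB were not well above background on any array. Within HK-2, replicate 1 minus replicate 2 of LUM fell from -5.6 to -0.62 with normexp correction and -1.4 with the deposited values. For DCN it fell from -4.76 to -0.0 and -0.77. These values were not taken relative to all genes. Of 10 proximal tubule markers, 7, 6, 4 and 7 were well above background, with summed levels of 2100%, 449%, 843% and 1680%. PAX8 was the brightest of them on every array (4.13, 1.61, 2.79 and 3.73), so it weighs most in these sums. Of the 8 detected on any array, 4 were more than 2-fold higher and 1 lower on replicate 1 within HK-2, beside 17.5% and 15.6% of all genes. Within RPTEC/TERT1 these counts were 0 and 3, beside 17.6% and 21.1%. ANPEP (0.49, -5.37, -5.37 and 0.47) moved with CDH1. LRP2 (-3.34, -1.72, -2.77 and -3.06) ran opposite to CDH1 within HK-2, and GGT1 (-0.88, -0.56, -0.35 and -0.65) varied little. LRP2 and PAX8 were detected on all 4 arrays, and CUBN and HNF4A were not well above background on any array. Distal tubule and collecting duct markers, of which 2, 1, 1 and 2 of 5 were detected, had summed levels of 82.4%, 14.7%, 14.6% and 109%. Of 5 endothelial markers 2, 1, 1 and 1 were detected, at 34.4%, 19.5%, 12.3% and 17.5%, and of 4 leukocyte markers on the array 3, 3, 4 and 3, at 91.1%, 139%, 187% and 85.2%. The part of other cell types in the members' levels was not tested.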

How the data were processed

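Total RNA of the 4 samples was labelled with Cy3 and hybridised to Agilent Human GE 4x44K v2 arrays. The authors deposited spot intensities on a linear scale from Feature Extraction 9.5.3.1, whose processed signal is background-subtracted and detrended but not scaled between arrays. They also deposited a series table of log2 values, whose centring and further processing are not given in the sources used here. Its medians were 8.33, 7.14, 6.75 and 6.72 (HK-2 replicates 1 and 2, RPTEC/TERT1 replicates 1 and 2), it runs in the direction of the intensities, and it served as an alternative. No column belonged to another sample. The labels name the RNeasy kit for RNA isolation and the methods another kit.

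Control and outlier spots were removed. Each signal was scaled to its array's 75th percentile and taken to log2, with values under 0.0242 of that percentile raised to it (on each array the dimmest spot well above background was found, and the brightest of these scaled signals was taken). Replicate spots were averaged by probe. Probes detected on 1 or more arrays were then averaged by gene. Folds against a gene at the floor are lower bounds under this processing only. Of the 15 probes, 14 entered the levels, and 14 had a transcript listed by RefSeq (GRCh38.p14), all under the same symbol. No promoter sequence was used here.

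The labelled lines were compared in limma 3.58.1 (R 4.3.3, moderated fit, two-sided, no block) over 16468 genes well above background on at least 2 arrays, with Benjamini-Hochberg adjustment at 0.05. The fit was also run on simulated data with far less spread between arrays of a label than CDH1 had here. That run cannot show how the fit behaves on these arrays. Replicate 1 of both lines was scanned on one day and replicate 2 on another, each array on a slide of its own. The deviations of same-numbered arrays from their label means correlated at -0.784 across genes. Groups and numbers come from the sample labels.

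The members, the lists (27 epithelial, 29 mesenchymal, 16 upstream and the marker lists) and the rule for named genes were chosen with earlier results of these data known. That rule names all 10 members, 12 list genes by role and, from each list, the 3 with the widest range over the arrays. Some named genes are not reported here. Alternatives were normexp (offset 50), the deposited log2 values, quantile normalization, other filters, no floor, the brightest probe, each probe alone, outlier spots kept, a replicate block and leaving out each array.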

Additional observations from a re-analysis of the deposited data

Results flagged for a closer look

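For 6 of the 10 genes (60.0%), and for 25.2% of 17928 genes, the difference HK-2 minus RPTEC/TERT1 was over 2-fold in one direction between the replicate 1 arrays and over 2-fold in the other between the replicate 2 arrays. On the log2 scale it was 4.65 and -4.26 for CDH1, -4.11 and 3.98 for CDH2, -4.12 and 3.76 for CDH6, -4.33 and 3.91 for FN1, 1.24 and -1.38 for ZEB1, and -1.74 and 1.19 for ZEB2, in replicate 1 and replicate 2. The sizes for CDH1 and FN1 are lower bounds, with 1 array of each label at the floor. Those for ZEB2 average in a probe that was at the floor on 1 array of each label. With 1 array of each label in a replicate, the difference between replicates was not tested. Replicate number and scan day cannot be told apart.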

How the results depend on the processing

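No gene and no member passed the limma test under any alternative run. The replicate block left all differences as they were, with 0 calls and 5 genes at an unadjusted p under 0.05 against 23 without it. Between the labels (HK-2 minus RPTEC/TERT1, log2), none of the differences was past the threshold, and these turned: with normexp EPCAM -0.31, CDH2 0.65, CDH6 0.78, VIM -0.45, FN1 1.05, ZEB1 0.09 and ZEB2 0.87. With the deposited log2 values CDH2 turned to 0.38, CDH6 to 0.44, VIM to -0.10, FN1 to 0.62, ZEB1 to 0.03 and ZEB2 to 0.49. With the brightest probe, or that probe alone, CDH2 became 0.05. The median over all genes of HK-2 replicate 1 minus replicate 2 moved from 0.03 to 1.20 with normexp and 0.87 with the deposited values. The cause of this move was not tested. The label differences with normexp and the deposited values were not taken relative to all genes. A shift over all genes therefore enters them, and their turns cannot be read as turns of single genes. Leaving out 1 array at a time gave ranges of -1.93 to 2.52 for CDH1, -0.40 to 0.77 for EPCAM, -2.18 to 2.05 for CDH2, -2.36 to 1.99 for CDH6, -0.86 to 0.93 for VIM, -2.37 to 1.75 for FN1, -1.13 to 0.99 for ZEB1, -1.25 to 0.69 for ZEB2, -0.20 to 0.88 for SNAI2 and -0.11 to 0.87 for TWIST1, the lone array being assumed to vary like the others. Without some arrays CDH1, FN1 and TWIST1 were well above background on too few and could not be fitted, nor could they with the filter on all 4 arrays. The median absolute difference over the members moved without a floor to 2.94 (HK-2 replicates 1 and 2), 3.51 (replicates 1), 2.61 (replicates 2) and 3.37 (RPTEC/TERT1 replicates 1 and 2), and for HK-2 replicate 1 and RPTEC/TERT1 replicate 2 from 0.24 to 1.91 with normexp and 1.26 with the deposited values, where the HK-2 arrays differed by 1.37 and 1.19. These medians with normexp and the deposited values were not taken relative to all genes, so a shift over all genes enters them. Signal near background limits TWIST1, ZEB2, SNAI2 and the undetected side of CDH1 and FN1.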
